A study of Mus musculus with 6 samples.

Results

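Small nucleolar RNAs are short nuclear RNAs that pair with ribosomal RNA and guide its chemical modification. Box C/D RNAs, whose genes are named Snord, guide ribose methylation and carry a C box near the 5′ end and a D box near the 3′ end. H/ACA RNAs, named Snora, guide the conversion of uridine to pseudouridine and end in an ACA box. Most lie in introns of host genes, many of which encode ribosomal proteins or have no coding product, and are cut from the spliced intron; they carry no poly(A) tail.

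The snoRNA genes described here are the rows of the deposited table whose symbol starts with Snora or Snord, whatever their level: 112 of 24617 rows, with 34 Snora and 78 Snord rows and 100 different symbols. Distal colon of male mice aged 8 weeks was compared between 3 TNFR2-/- mice (the knockout) and 3 wildtype mice, all labelled as C57Bl/6, with no treatment named and 1 library per mouse. TNFR2 is a receptor for tumor necrosis factor encoded by Tnfrsf1b; the labels do not describe the knockout allele. Library preparation included mRNA enrichment, and each value is an FPKM, a fragment number divided by transcript length and by library size.

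Tnfrsf1b measured 1.17, 1.12 and 0.924 FPKM in knockout libraries 1 to 3, against 7.49, 8.20 and 8.17 FPKM in wildtype libraries 1 to 3. Summed FPKM of 5 colon epithelial genes (Car1, Slc26a3, Krt20, Cdx2 and Zg16) lay between 3433 and 5227 in knockout and between 3354 and 4378 in wildtype libraries. Sums of 4 genes each of other tissues were also above 0: skin keratin genes and loricrin (Krt14, Krt5, Krt10, Lor) reached 33.3, 276 and 486 FPKM in knockout and 525, 212 and 602 FPKM in wildtype libraries, and skeletal muscle genes (Ckm, Acta1, Myh4, Tnnt3) reached 96.9, 1118 and 835 FPKM in knockout and 4717, 1462 and 1772 FPKM in wildtype libraries. Knockout library 1 was lowest in both sums. Their part in the snoRNA results was not tested.

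The sequences of the snoRNAs that the comparison turns on are given first, from GENCODE vM21 on GRCm38, 5′ to 3′ on the strand of the gene. In the Snord sequences, capitals mark the first TGATGA, the core of the C box, and the last CTGA, the D box; in the Snora sequences, they mark an ACA in the last 8 bases. Snord65 (chr11:62604515-62604586, plus strand), Snord52 (chr17:34950952-34951017, minus strand) and Snora61 (chr4:132310240-132310369, plus strand) show the pattern of a single fragment in each knockout library described below. Snord4a (chr11:78181686-78181756, minus strand) is the called box C/D RNA that goes the other way. Snora68 (chr8:70895759-70895889, minus strand) is a called RNA with more fragments, and Snord104 (chr11:106500993-106501062, plus strand) had the highest FPKM.
Snord65: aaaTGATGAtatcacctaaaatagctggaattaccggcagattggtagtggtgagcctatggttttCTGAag
Snord52: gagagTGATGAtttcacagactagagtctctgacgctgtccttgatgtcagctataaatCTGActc
Snord4a: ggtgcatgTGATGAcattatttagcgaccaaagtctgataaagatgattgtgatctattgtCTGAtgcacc
Snord104: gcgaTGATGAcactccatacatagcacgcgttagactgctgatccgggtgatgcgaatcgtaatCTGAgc
Snora61: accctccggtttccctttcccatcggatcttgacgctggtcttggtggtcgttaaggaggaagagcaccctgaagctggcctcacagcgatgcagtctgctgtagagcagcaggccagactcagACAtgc
Snora68: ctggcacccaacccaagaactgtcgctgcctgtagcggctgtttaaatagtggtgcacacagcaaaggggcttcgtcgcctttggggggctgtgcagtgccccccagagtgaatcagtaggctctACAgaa

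Among the 61 Snord sequences found off chromosome 18, 41 hold TGATGA and 61 hold CTGA on the strand of the RNA; on the opposite strand 1 and 21 do. Of 31 Snora sequences, 0 hold TGATGA on either strand and 16 hold CTGA (20 on the opposite strand), while 29 have ACA in the last 8 bases (3 on the opposite strand), against 6 of the 61 Snord sequences (13 on the opposite strand). Most sequences thus hold the box letters of their family. The RefSeq span was shorter than the GENCODE span in 78 of 94 genes with both, by a median of 11 bases over all 94. Snora61 is an extreme case, with 130 bases in GENCODE and 62 in RefSeq. The RefSeq lengths are the ones the deposited values follow, as described below.

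Of the 112 snoRNA rows, 38 were listed at 0 in all 6 libraries, 74 were above 0 in at least 1, and 20 were above 0 in every library. The count above 0 was 44, 54 and 54 in knockout libraries and 47, 47 and 37 in wildtype libraries. The 10 rows of the Snord116 family, an imprinted cluster known for its expression in brain, were all listed at 0. The table's locus column gives the span of the whole cluster of overlapping transcripts, so 97 snoRNA rows carry a locus of over 1000 bases (median 5626 bases over all 112), and the length of the RNA cannot be read from it. RefSeq lengths, available for 96 rows, ran from 28 to 221 bases with a median of 77.

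The members with the highest mean FPKM among those above 0 in every library were Snord104, Snord47, Snord96a, Snord123 and Snord22. Snord104, whose human counterpart guides methylation of the large-subunit rRNA, measured 896, 1227 and 1313 FPKM in knockout libraries, against 1233, 1257 and 655 FPKM in wildtype libraries. Its groups overlapped, and its log2 difference, knockout minus wildtype on the log2(FPKM + 1) scale, was 0.17 ± 0.29 (SE; limma, Benjamini-Hochberg adjusted p = 0.799). Snord47 measured 346, 135 and 426 FPKM in knockout libraries and 469, 573 and 478 FPKM in wildtype libraries. Every knockout value of Snord47 lay below every wildtype value, and the log2 difference of -0.89 ± 0.46 did not pass the test (limma adjusted p = 0.394). Snord96a measured 154, 135 and 285 FPKM in knockout libraries, against 274, 651 and 319 FPKM in wildtype libraries (limma adjusted p = 0.321).

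Snord22, whose Xenopus counterpart is needed for processing of the small-subunit rRNA, measured 58.7, 91.1 and 83.1 FPKM in knockout and 111, 101 and 48.7 FPKM in wildtype libraries. Snord123 measured 38.2, 200 and 17.6 FPKM in knockout and 77.7, 37.9 and 158 FPKM in wildtype libraries, a spread of over 10 times within the knockout. The groups overlapped for both, with limma adjusted p of 0.908 for Snord22 and 0.823 for Snord123.

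The comparison of the 2 genotypes asks which snoRNA genes differ between colon without and with TNFR2. As deposited, 11 snoRNA genes passed the test (limma on log2(FPKM + 1), Benjamini-Hochberg adjusted p under 0.05), 9 higher and 2 lower in knockout, out of the 61 whose mean over the libraries reached 0.5 FPKM. Over all 14564 rows tested, 0.288% passed, 0.185% higher and 0.103% lower. Of the 80 other small RNA rows tested, most of them microRNA genes, 3 passed (3.75%), 2 higher and 1 lower. The median log2 difference was 0.30 over the 61 snoRNA genes and -0.03 over all rows tested; on the effective-length and annotated-length scales described below, the snoRNA median was 0.21 and 0.07 in that order. Among the 61, 30 had a mean under 0.5 FPKM in 1 genotype, 7 in knockout and 23 in wildtype, and so were tested only through the other; all 11 that passed were of this kind. Without knockout library 1, the lowest in skin and muscle genes, 17 snoRNA genes passed, and without that library and wildtype library 3, which was highest in skin genes, 16 did.

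Of the called box C/D RNAs, Snord65, whose human counterpart guides methylation of the small-subunit rRNA, measured 382, 445 and 353 FPKM in knockout libraries, against 0, 0.333 and 0 FPKM in wildtype libraries. Snord91a measured 451, 262 and 208 FPKM in knockout libraries and was listed at 0 in every wildtype library. Snord52 measured 265, 309 and 245 FPKM in knockout, against 0.658, 0 and 0 FPKM in wildtype libraries. The 3 genes had over 200 FPKM in every knockout library and under 1 FPKM in every wildtype library. The human counterparts of Snord91a and Snord52 guide methylation of the large-subunit rRNA.

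Snord2 measured 83.4, 291 and 308 FPKM in knockout and 0.571, 0 and 0 FPKM in wildtype libraries. Snord15b measured 8.97, 13.0 and 10.3 FPKM in knockout and 0.669, 0.262 and 0 FPKM in wildtype libraries. Snord4a went the other way, with 0, 0.317 and 0 FPKM in knockout and 140, 205 and 190 FPKM in wildtype libraries. None of these groups overlapped.

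Of the called H/ACA RNAs, Snora61 measured 168, 196 and 155 FPKM in knockout and 0.313, 0.306 and 0 FPKM in wildtype libraries. Snora68, whose human counterpart guides pseudouridylation of the large-subunit rRNA, measured 45.9, 66.8 and 42.3 FPKM in knockout and 0.594, 0.194 and 0 FPKM in wildtype libraries. Snora34 measured 25.6, 23.9 and 14.2 FPKM in knockout, against 0.658, 0 and 0 FPKM in wildtype libraries. The knockout values thus stood far above the wildtype values, as for most of the called box C/D RNAs.
Snora43 measured 10.6, 15.4 and 14.6 FPKM in knockout and 0.419, 0.409 and 0 FPKM in wildtype libraries. Snora5c was lower in knockout, with 0.756, 0.220 and 0 FPKM, against 20.4, 9.95 and 13.8 FPKM in wildtype libraries. Adjusted p in limma ran from 7.05e-07 for Snord65 to 0.0363 for Snord2 over the 11 genes. Snora5c lost its call without knockout library 2, knockout library 3 or wildtype library 3 (limma adjusted p of 0.0776, 0.0606 and 0.0732 in that order), and Snord2 lost its call without any library but knockout library 1 (limma adjusted p from 0.0862 to 0.236). Values of the genotypes did not overlap in 15 of the 61 tested snoRNA genes, or 24.6%, against 21.8% of all rows tested, so the count without overlap lay near the background.

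**Figure D1:**
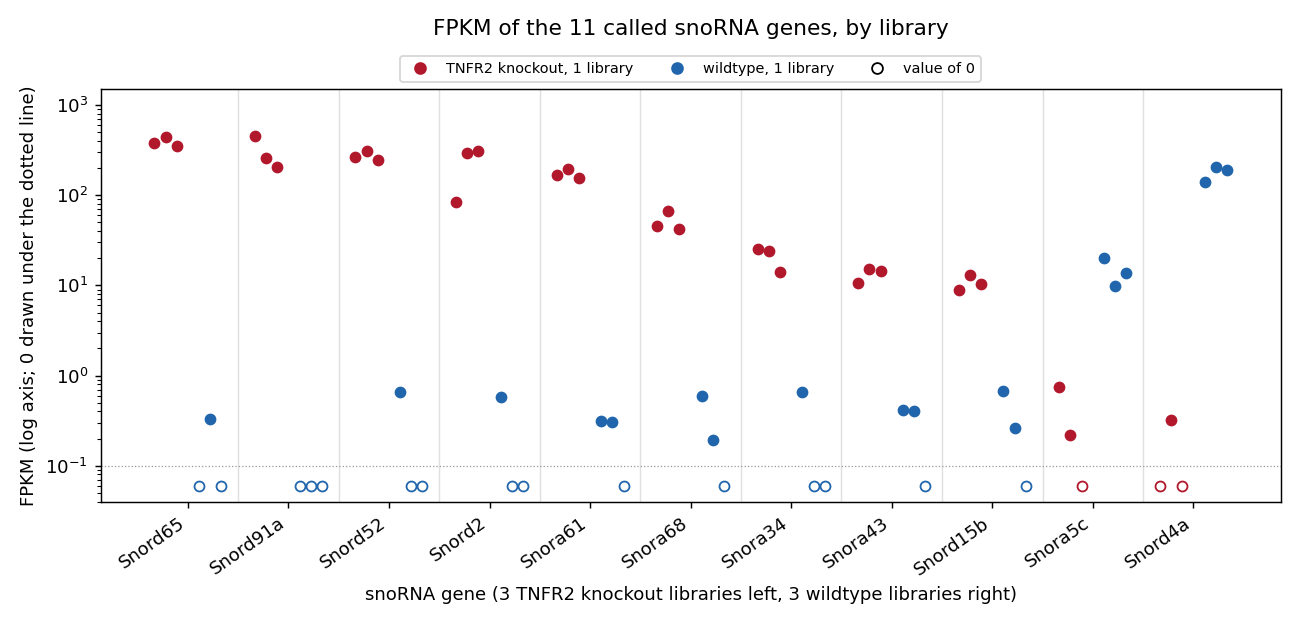
FPKM (log axis) of the 11 called snoRNA genes, 1 point per library, with 3 TNFR2 knockout libraries (red) left of 3 wildtype libraries (blue) for each gene; values of 0 are open points under the dotted line. The lower genotype of each gene lies under 1 FPKM in every library, and each has library 3 at 0.

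A switch-like pattern, at least 10 FPKM in all 3 libraries of one genotype and under 1 FPKM in all 3 of the other, was seen in 9 of the 112 snoRNA rows (8.04%), 8 high in knockout and 1, Snord4a, high in wildtype. It was seen in 5 of 487 other small RNA rows (1.03%) and in 2 of the remaining 22509 named rows (0.00889%), which makes 0.0692% of all named rows. Named rows other than snoRNA rows with a listed locus in the same length range, 20 to 292433 bases, held 7 of 22026 (0.0318%). Loci of that range do not match the rows on the length of the RNA. The 9 were Snord65, Snord91a, Snord4a, Snora34, Snord2, Snord52, Snora43, Snora61 and Snora68. With 0 required in every library of the low genotype, 1 remained, Snord91a, and with at least 100 FPKM required in the high genotype, 5 did. Without knockout library 1 the count was 15.

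The values of the snoRNA genes were not spread evenly. They were whole multiples of what 1 fragment is worth in a library, and that worth took 2 forms. In the first, here called the annotated-length scale, FPKM times RefSeq length times 1 constant per library gave whole numbers for all 54 values on it, to within 0.02 fragments. The constants were chosen to make values whole, which builds in part of this agreement. In the second, here called the effective-length scale, 1 fragment was worth far more, as if the RNA were much shorter than its annotated length, and 214 of 228 values were whole, to within 0.02 fragments or 1%; the 14 others belong to 3 rows, Snord89, Snord58b_b and Snora30_a (letters at the end mark rows that share a symbol). On this scale the worth of a fragment was mostly read from the gene's own values, which builds in part of this agreement. Genes of the same length gave the same worth to within 1% at 8 of the 9 lengths where several genes gave one.

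The constant per library is the total number of fragments the values imply: 52.4M, 45.0M and 56.8M in knockout libraries and 51.5M, 52.7M and 37.9M in wildtype libraries, 49.4M on average. Library 3 of each genotype held 0 values on the annotated-length scale, so its constant was read from effective-length values instead. These are the largest and the smallest total. The series' text states an average depth of 50M reads. Reads were paired ends, so reads and fragments may differ in unit. The smallest well-fitting total within a set range was taken, so the averages do not check each other. On the effective-length scale the length implied for a 57-base RNA such as Snord65 was 0.0499 bases, and 1 fragment was worth 445 FPKM in knockout library 2, as listed for Snord65. On the annotated-length scale 1 fragment of Snord65 was worth 0.333 FPKM in wildtype library 2, as listed, where the other scale would have given 380 FPKM, 1141 times more. By the same calculation the scales lie 25.8 times apart for a 126-base RNA such as Snord22 and 5.60 times apart for the longest, the 221-base Snord17.

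**Figure D2:**
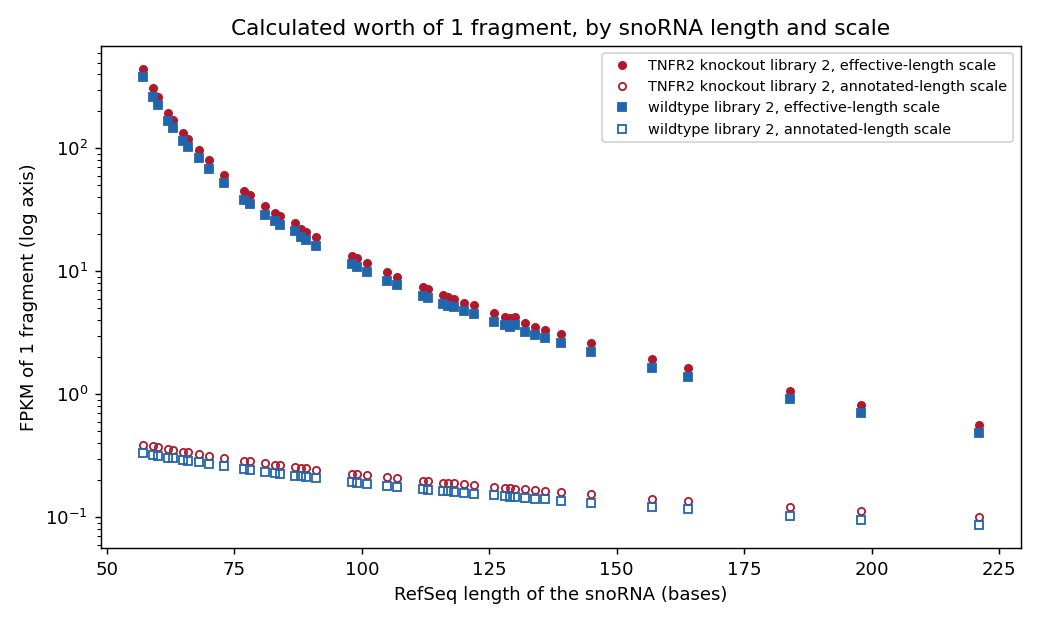
FPKM of 1 fragment (log axis) against RefSeq length in bases, calculated from the implied totals and steps, on the effective-length scale (filled) and the annotated-length scale (open), in TNFR2 knockout library 2 (red) and wildtype library 2 (blue); not every point has a value in the table. At 57 bases the scales lie 1141 times apart and at 221 bases 5.60 times.

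Which scale a gene was on went with library 3 of the genotype. In 38 of 38 cases where library 3 of a genotype was at 0 and another of its libraries was above 0, all values of that genotype were on the annotated-length scale. In 90 of 90 cases where library 3 was above 0, all were on the effective-length scale. For the longest genes, such as Snord17, the worth of a fragment on that scale was read only from genotypes with library 3 above 0. For those genes the split was thus partly assumed. Library 3 at 0 came up 15 times in knockout and 23 times in wildtype, library 3 above 0 came up 53 times in knockout and 37 times in wildtype. Other small RNA rows of 61 to 128 bases, most of them microRNA genes, split in the same way, in 71 of 71 and 83 of 83 cases, in the 98 rows with no value near the annotated-length scale that was not whole. In 10 of the 11 rows with such a value, library 3 was above 0 while values lay near the annotated-length scale in at least 1 genotype, so those rows did not follow the split. Of the 11 called snoRNA genes, 10 had the lower genotype on the annotated-length scale and the higher genotype on the effective-length scale, and Snord91a was at 0 in every wildtype library.

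Read as fragments, the called genes rested on few observations. Snord65 had 1 fragment in each knockout library and 0, 1 and 0 fragments in wildtype libraries 1 to 3. Snora61 had 1 in each knockout library and 1, 1 and 0 in wildtype libraries. Snord52 had 1 in each knockout library and 2, 0 and 0 in wildtype libraries, so that 1 fragment gave 265 FPKM in knockout library 1 while 2 fragments gave 0.658 FPKM in wildtype library 1. These 3 genes, with differences of over 7 on the log2(FPKM + 1) scale, thus differed by 1 fragment in total between genotypes, or by 2 for Snord65.

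Snord91a had 2, 1 and 1 fragments in knockout libraries and 0 in each wildtype library. Snord2 had 1, 3 and 4 in knockout and 2, 0 and 0 in wildtype libraries. Snord4a had 0, 1 and 0 in knockout and 2, 3 and 2 in wildtype libraries. Snord4a and Snord91a kept groups without overlap in fragments, while Snord2 did not.

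Snora68 had 4, 5 and 4 fragments in knockout and 3, 1 and 0 in wildtype libraries. Snora34 had 5, 4 and 3 in knockout and 4, 0 and 0 in wildtype libraries. Snora43 had 4, 5 and 6 in knockout and 3, 3 and 0 in wildtype libraries. These 3 H/ACA RNAs had the higher sums in knockout, and the groups of Snora34 overlapped. Snord15b had 4, 5 and 5 fragments in knockout and 5, 2 and 0 in wildtype libraries. Snora5c, called lower in knockout, had 4, 1 and 0 fragments in knockout and 2, 1 and 1 in wildtype libraries, and so a sum of 5 against 4. Over the 11 genes no library held more than 6 fragments of one, and 7 of the 11 had groups that overlapped in fragments.

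**Figure D3:**
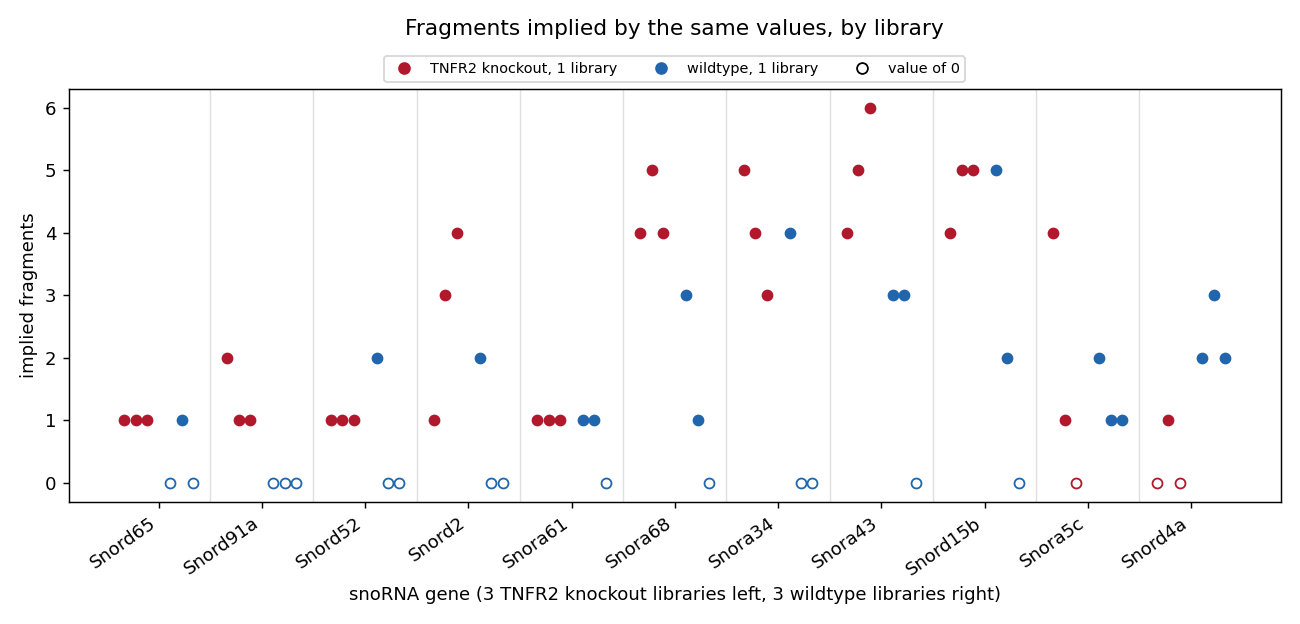
Fragments implied by the FPKM of the 11 called snoRNA genes, 1 point per library, with TNFR2 knockout libraries (red) left of wildtype libraries (blue); values of 0 are open. No point lies above 6 fragments, and the groups overlap for 7 of the 11 genes.

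Relative to the summed totals, Snora68 had 3.00 times as many fragments in knockout (13) as in wildtype (4), with an exact 95% interval of 0.926 to 12.6. The interval covers counting error only and pools the 3 libraries of a genotype. For Snord65 the ratio was 2.77 (0.222 to 145), for Snora61 and Snord52 1.38 (0.158 to 16.6), and for Snord4a 0.132 (0.00292 to 1.03). Snord91a, with 4 fragments in knockout and 0 in wildtype, had an exact 95% interval that starts at 0.609 and has no upper limit; against a floor of 3 fragments over the wildtype libraries its ratio came to 1.23. None of the 11 intervals excluded 1. Over the 70 snoRNA genes above 0 with whole values, 2 intervals did: Snord96a, with 15 fragments in knockout and 30 in wildtype, at 0.461 (0.231 to 0.884), and Snora30_b, with 11 in knockout and 2 in wildtype, at 5.07 (1.11 to 47.1). The 70 intervals were not adjusted for their number. Snora30_b shares its symbol with another row, and reads may be split between them.

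With every snoRNA value placed on the effective-length scale, 1 snoRNA gene of 74 passed the test, Snord91a (limma adjusted p = 2.96e-04), where 0.192% of all rows passed. On the annotated-length scale, 0 of the 21 that reached the minimum mean passed in limma, with 4 at an unadjusted p under 0.05, where 0.186% of all rows passed. Both settings were chosen after the data were seen. On the effective-length scale the log2 difference was 5.76 ± 2.73 (SE) for Snord65, 2.50 ± 2.36 for Snora61, 2.76 ± 1.47 for Snora68 and -5.35 ± 2.02 for Snord4a, against 8.48 ± 0.14, 7.18 ± 0.13, 5.38 ± 0.23 and -7.33 ± 0.17 as deposited. For each of these 4 genes the error was larger once the libraries shared a scale.

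Genes that were not called show the scale as well; these 2 were chosen after their values were seen. Snora41, in an intron of Eef1b2, measured 18.4, 21.5 and 5.67 FPKM in knockout and 0.515, 1.34 and 0 FPKM in wildtype libraries, while its fragments numbered 3, 3 and 1 in knockout and 3, 8 and 0 in wildtype libraries, so the gene with the higher FPKM in knockout had the fewer fragments there. Snora7a, at 0.740, 0.689 and 0 FPKM in knockout and 1.20, 0.147 and 0 FPKM in wildtype libraries, was under the minimum mean, with 5, 4 and 0 fragments in knockout and 8, 1 and 0 in wildtype libraries. That is more than Snord65, Snord52 or Snora61 had.

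Summed over the snoRNA genes with a RefSeq length, and with values that were not whole rounded, fragments numbered 174, 205 and 254 in knockout libraries and 207, 222 and 114 in wildtype libraries. Relative to the implied totals, in fragments on snoRNA genes per 1M fragments, this came to 4.12 ± 0.69 in knockout and 3.74 ± 0.65 in wildtype (SD, n = 3 each), and the ranges overlapped. Box C/D genes accounted for 64, 97 and 131 fragments in knockout and 103, 116 and 55 in wildtype libraries, H/ACA genes for 110, 108 and 123 in knockout and 104, 106 and 59 in wildtype libraries. Fewer cells of a type and less RNA per cell cannot be told apart in such tissue samples. Snord22 and Snord104 held the most, 121 and 120 of 1176 fragments, followed by Snora65 with 69 and Snora28 with 63.

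Snord104 had 17, 20 and 27 fragments in knockout and 23, 24 and 9 in wildtype libraries, a ratio of 1.05 (0.725 to 1.54). Snord22 had 15, 20 and 23 in knockout and 28, 26 and 9 in wildtype libraries, a ratio of 0.849 (0.584 to 1.23). Snord47, in spite of its 302 FPKM on average in knockout and 507 in wildtype, rested on 3, 1 and 4 fragments in knockout and 4, 5 and 3 in wildtype libraries. Of all whole values above 0, 32.1% were 1 fragment and 59.7% were 1 to 3 fragments.

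Detection went with length. Of 13 snoRNA genes with a RefSeq length of 28 to 56 bases, 10 were listed at 0 in all 6 libraries, and the 3 others, Snord37, Snord19 and Snord58b_b, summed to 5 fragments. Of 29 genes of 57 to 68 bases, 10 were at 0 throughout. From 70 to 89 bases 0 of 15 were, from 91 to 119 bases 2 of 20 and from 120 to 221 bases 1 of 19. Of the called genes, 0 were among the 13 of 28 to 56 bases, 5 among the 29 of 57 to 68 bases, 1 among the 15 of 70 to 89 bases, 3 among the 20 of 91 to 119 bases and 2 among the 19 of 120 to 221 bases.

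**Figure D4:**
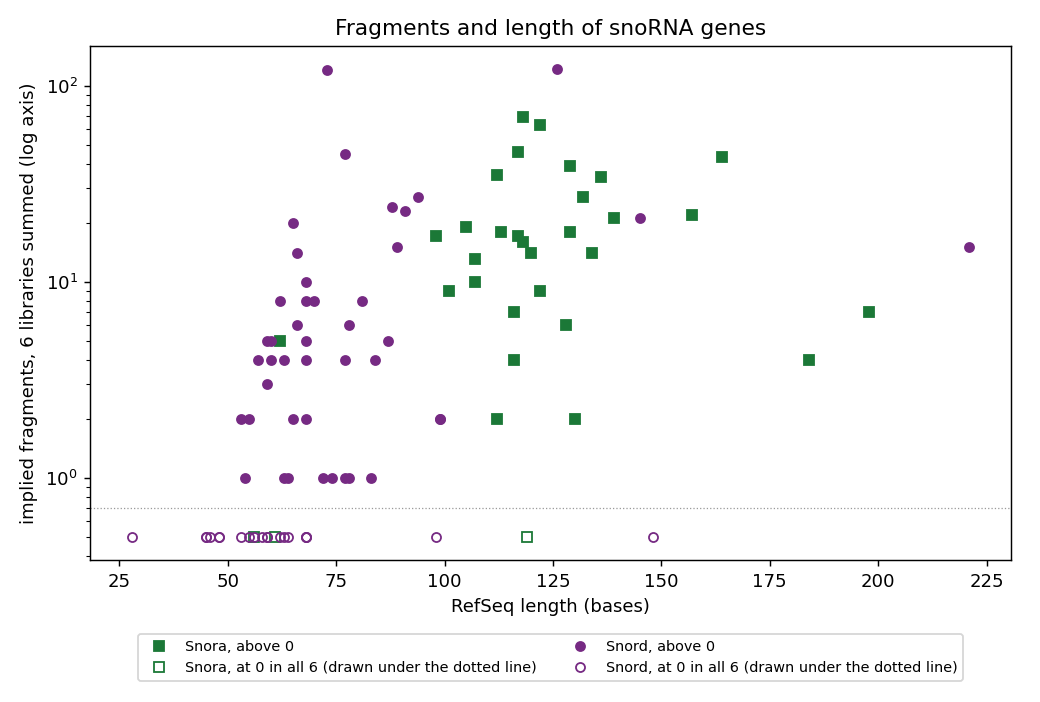
Implied fragments summed over the 6 libraries (log axis) against RefSeq length in bases, for Snora genes (green squares) and Snord genes (purple circles); genes at 0 in all 6 libraries are open symbols under the dotted line. Of the 13 genes under 57 bases, 10 are at 0, and Snord22 and Snord104 stand highest.

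The authors' deposited table also gives 1 FPKM per genotype, and for most snoRNA gene and genotype pairs above 0 it lay near the mean of the 3 libraries. It lay within 20% of that mean in 90 of 129 gene and genotype pairs above 0 (69.8%). Among other small RNA rows this held for 126 of 200 such pairs (63%), and among named rows that are not small RNAs for 98.1% of 38028. All snoRNA pairs on the annotated-length scale missed the mean: 0 of 38 lay within 20%, and the authors' value was a median of 138 times the mean. With those values placed on the effective-length scale, 33 of the 38 lay within 20%, and 123 of the 129 did overall.

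In the authors' deposited table Snord65 has a group value of 383 FPKM in knockout and 127 FPKM in wildtype, although its wildtype libraries are listed at 0, 0.333 and 0 FPKM. Snora61 has 174 FPKM in knockout and 113 FPKM in wildtype there. For Snora5c, which limma called lower in knockout, the authors' deposited table has 15.6 FPKM in knockout and 13.8 FPKM in wildtype. Over the called genes higher in knockout other than Snord91a, the ratio of the authors' group values, knockout over wildtype, ran from 1.46 to 4.14. The authors' deposited table calls 0 of the 112 snoRNA genes at a q-value under 0.05, with 0.391 the lowest p-value of a snoRNA gene, while 252 of its rows have a q-value under 0.05. For 42 of the 112, the listed p-value and q-value can stand for a gene left untested. Among them is Snora30_b, with a listed log2 fold change of 0 beside group values of 29.9 FPKM in knockout and 5.95 FPKM in wildtype.

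**Figure D5:**
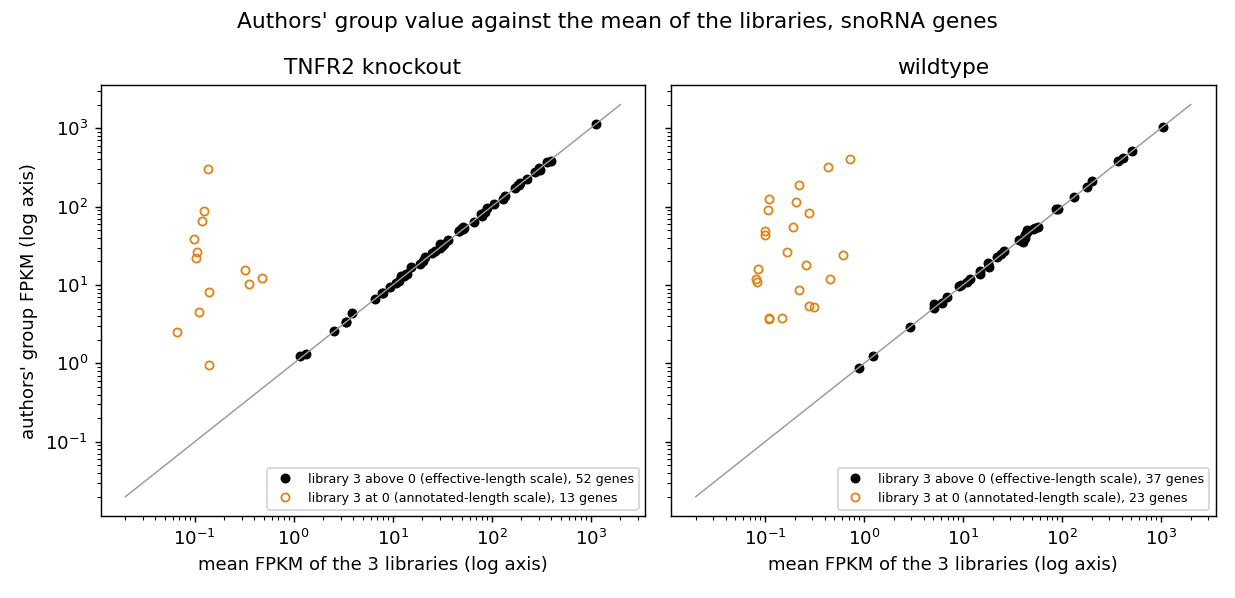
Authors' group FPKM against the mean FPKM of the 3 libraries (both log axes) for snoRNA genes above 0 in both, in TNFR2 knockout (left) and wildtype (right); black points have library 3 above 0, open orange points have it at 0, and the line marks equality. The 13 orange points of the knockout and the 23 of the wildtype lie above the line, while the black points follow it.

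The genes that carry the snoRNAs did not pass the test. Of 88 named rows whose listed span holds a snoRNA locus, 85 were tested and 0 were called (limma, with 5 at an unadjusted p under 0.05 and a median log2 difference of -0.00114); among the 62 tested rows that are annotated hosts on the same strand, 59 differed by less than 0.3 on the log2 scale. Each of 2 rows among the 85 was called once when a library was left out: Rnu73b without knockout library 2 (log2 difference 6.61, limma adjusted p = 0.0398) and Rabggtb without wildtype library 3 (log2 difference -2.91, limma adjusted p = 0.0264). Rnu73b, which is not an annotated host, measured 62.7, 0 and 173 FPKM in knockout and 0, 0.267 and 0 FPKM in wildtype libraries. As in the called snoRNA genes, library 3 was at 0 in its lower genotype and above 0 in the higher. Its 0.267 FPKM equals the wildtype library 2 value of Mir186 and Scarna10, small RNA rows of 71 bases on the annotated-length scale. The part of the scales in the call of Rnu73b was not tested. Rabggtb, an annotated host, measured 32.2, 34.5 and 36.1 FPKM in knockout and 360, 194 and 33.8 FPKM in wildtype libraries.

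Snhg12, the noncoding host of Snora61, measured 20.1, 22.9 and 20.4 FPKM in knockout and 19.2, 18.7 and 18.2 FPKM in wildtype libraries. Rpl23a, the ribosomal protein gene that holds Snord4a, measured 1622, 1502 and 1633 FPKM in knockout and 1543, 1642 and 1672 FPKM in wildtype libraries. The host of Snord65, 2410006H16Rik, measured 86.6, 81.1 and 79.8 FPKM in knockout and 76.0, 71.8 and 80.0 FPKM in wildtype libraries. Adjusted p in limma was 0.319 for Snhg12, 0.858 for Rpl23a and 0.447 for 2410006H16Rik.

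Eif4a2, a helicase gene of translation initiation and the host of Snord2, averaged 118 ± 4.46 FPKM in knockout and 97.6 ± 4.67 FPKM in wildtype (SD, n = 3 each), a log2 difference of 0.27 ± 0.07 (SE; limma adjusted p = 0.218). Snhg7, whose listed span holds Snora43, averaged 6.53 ± 0.46 FPKM in knockout and 4.91 ± 0.27 FPKM in wildtype (SD, n = 3 each; limma adjusted p = 0.182, the lowest of the 85). Further hosts of called genes (Tsr1 of Snord91a, Tbrg4 of Snora5c, 2310037I24Rik of Snora34, 1110038B12Rik of Snord52 and Rps3 of Snord15b) had limma adjusted p of 0.529, 0.668, 0.915, 0.561 and 0.944 in that order. Hosts of the abundant genes, Gas5 for Snord47, Gnb2l1 for Snord96a, 0610007N19Rik for Snord123 and Snhg1 for Snord22, had 0.889, 0.965, 0.928 and 0.342 in that order.

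The 11 other snoRNA genes that share a host or listed span with a called one did not pass; 6 of them reached the minimum mean, with limma adjusted p from 0.382 to 0.799. In Snhg12, Snora16a had 3, 7 and 9 fragments in knockout and 7, 7 and 1 in wildtype libraries, Snora44 had 1, 0 and 6 in knockout and 5, 4 and 1 in wildtype libraries, and Snord99 was listed at 0. In Rpl23a, Snord42a and Snord42b were listed at 0 in all 6 libraries. In 2410006H16Rik, Snord49b had 3, 0 and 1 fragments in knockout and 0 in each wildtype library, whereas Snord49a had 0, 1 and 0 in knockout and 3, 4 and 0 in wildtype libraries. Snora81, beside Snord2 in Eif4a2, had 10, 10 and 5 fragments in knockout and 7, 7 and 4 in wildtype libraries. Snora17, beside Snora43, had 6 in each knockout library and 1, 3 and 5 in wildtype libraries (limma adjusted p = 0.489). Snora2b, beside Snora34, had 0, 1 and 0 in knockout and 0, 0 and 1 in wildtype libraries, and Snord15a, beside Snord15b, was listed at 0.

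The genes that encode proteins forming and assembling snoRNPs were also compared. Of 23 such genes tested, 0 were called in limma (2 at an unadjusted p under 0.05), with log2 differences between -0.18 and 0.28. The median was 0.01. Of the 8 genes of core proteins, 7 had a log2 difference below 0 and 1 above, with a median of -0.08. Over all 14564 rows tested, 8353 lay below 0. Fbl, the methyltransferase of box C/D particles, measured 64.2, 59.9 and 63.7 FPKM in knockout and 59.8, 67.6 and 65.8 FPKM in wildtype libraries (limma adjusted p = 0.814). Dkc1, the pseudouridine synthase of H/ACA particles, measured 10.66, 9.85 and 10.85 FPKM in knockout and 10.01, 9.74 and 10.27 FPKM in wildtype libraries (limma adjusted p = 0.679). Nop56, Nop58 and Nhp2l1, also of the box C/D core, and Gar1, Nhp2 and Nop10, also of the H/ACA core, had limma adjusted p of 0.558, 0.686, 0.410, 0.686, 0.723 and 0.610 in that order.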

How the data were processed

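The deposited table holds 1 FPKM value per gene and library and 1 per genotype, per the file headers. The authors mapped reads (paired ends, 50 bp) by Tophat2 and Bowtie2, ran Cufflinks and compared genotypes by Cuffdiff 2, per the series' design text; the deposited log2 fold changes, p-values and q-values are the authors' own. The build is mm10, per the submitters' processing notes. The sources used here do not give program releases, annotation or strandedness. The 1509 rows with no gene name (6.13%) were left out.

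FPKM are not counts, so log2(FPKM + 1) was tested with limma 3.58.1 in R 4.3.3 (trend and robust moderation, Benjamini-Hochberg over all named rows with a mean of at least 0.5 FPKM). Replicates are separate mice per the labels. Fragments were recovered from the steps of the values with RefSeq lengths (GRCm38.p6) and Python 3, and both procedures were tested on simulated data. The simulation of fragments built in the split by library 3, and that of limma held no change of scale between genotypes. Neither therefore tests the snoRNA calls. Replicate numbers were not used to pair the mice in the main fit. Deviations of same-numbered libraries correlated at -0.37, -0.34 and 0.21. These values cannot settle whether same-numbered libraries share a batch.

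Named genes were all called or switch-like snoRNA genes, the 5 highest above 0 in every library, those sharing a host with a called or switch-like gene, their hosts, Tnfrsf1b and the core snoRNP genes; 1 host is not reported here. Genes and lists were chosen with earlier results of these data known. Alternatives were other pseudocounts, minima, scalings and moderation, a replicate block, each library left out, and both scales. Intervals are exact (Clopper-Pearson, 95%) and cover counting error only.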

Additional observations from a re-analysis of the deposited data

How the results depend on the processing

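The count of called snoRNA genes, 11 as deposited, was 4 with a pseudocount of 0.1, 1 on the effective-length scale and 0 on the annotated-length scale; leaving out 1 library gave 9 to 17, with 17 without knockout library 1. Among the snoRNA genes named in the text, the count was likewise 4, 1 and 0 under these settings, and 9 to 11 with 1 library left out. Other settings (pseudocount 10, no minimum, a minimum mean of 5 FPKM, median scaling, no trend or robust moderation) gave 9 to 11. The replicate block gave 11 calls among snoRNA genes, 10 of them among those named, and 24 over all rows, against 42 without it. Whether the numbers pair the mice is not known. Rows whose span holds a snoRNA locus gave 0 calls in every setting but 2. Without knockout library 2 the 1 call was Rnu73b, not an annotated host, and without wildtype library 3 it was Rabggtb. SnoRNP genes gave 0 throughout. The switch-like count of 9 became 1 with a low limit of 0, 5 with a high limit of 100 FPKM, 1 on the effective-length scale, and 9 to 15 with 1 library left out. Agreement with the authors' group values covered 90 of the 129 pairs within 20%, 72 within 5% and 123 within 20% on the effective-length scale. Over the 13 settings other than the scales and the removal of 2 libraries, Snord65, Snord91a, Snord4a and Snora61 passed in all, Snord2 in 5 and Snora5c in 8; the other 5 lost their call with a pseudocount of 0.1. The log2 difference of the called genes kept its sign wherever it was fitted, which on the annotated-length scale was for Snora68 alone; on the effective-length scale the mean of Snora5c was 17.2 FPKM in knockout and 14.7 FPKM in wildtype, higher in knockout, while its log2 difference was -0.91. Depth limits single genes: 59.7% of whole values are 1 to 3 fragments.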
